A study of Mus musculus and Homo sapiens with 10 samples.

Results

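Imprinted genes were followed in RNA-seq of mouse and human embryonic stem cells (mESCs and hESCs) given vitamin C (vitC). The set was a list of 40 mouse gene symbols, taken by symbol and with no cutoff on a measured value. Of these, 37 had a row among the 25899 genes of the mESC table, and 32 had at least 1 read in some mESC library. Rian, Mirg and Kcnq1ot1 were not listed in that table. In the hESC table of 35720 genes, 35 of the 40 symbols were found in upper case, and RIAN, MIRG, ZIM1, MCTS2 and H13 were not listed under those names.

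The mESCs were of the E14 line, grown without feeders in 2i medium, which is serum-free and blocks the MEK and GSK3 kinases, with LIF. There were 4 cultures, named VC10, VC11, VC35B and VC35C, and each gave 1 untreated control library and 1 library after vitC at 100 µg/ml for 24 h, so that there were 4 control and 4 vitC libraries in 4 pairs. The labels do not say what sets VC10 and VC11 apart from VC35B and VC35C, or whether the cultures were independent thaws or passages. P-values therefore measure only the spread between these cultures. The labels give the hESCs as H9, kept in KSR/FGF medium. They gave 1 control and 1 vitC library with the same dose and time. The study's methods describe a pair of primed human lines, H9-NK2 cells in KSR/FGF medium, which carry doxycycline-inducible KLF2 and NANOG transgenes, and H9 cells in conditioned medium. The labelled name fits the second and the labelled medium the first, so which of them was sequenced is not certain. The mESC libraries are labelled as total RNA and the hESC libraries as polyA RNA.

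Imprinted genes are transcribed mainly from the copy inherited from 1 parent. Their clusters are governed by imprinting control regions, stretches of CpG-rich DNA that are methylated on only 1 parental copy and that keep this mark through the wave of demethylation after fertilisation. ZFP57, a KRAB zinc finger protein, binds the methylated hexamer TGCCGC at these regions and recruits TRIM28 and SETDB1, which lay down H3K9me3. VitC is a cofactor of the TET enzymes and of Jumonji histone demethylases, which act on the same marks. The reads were not split by parental allele, so only the summed level of each gene was measured.

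Sequences upstream of some of the genes named in the results are printed for reference, since DNA methylation acts on their CpG sites. Those of Gnas and Mkrn3 are not printed. RefSeq (GRCm38.p6) gave promoter sequence for 33 of the 40 genes, and none for Peg10. The TGCCGC hexamer, searched on both strands, lay in the 250 bases before a start site of 6 of these 33 genes (Zim1, Meg3, Mcts2, Mest, Plagl1 and Zdbf2), or 18.2%, against 9.84% of the 27025 genes in the table. The median number of CpG sites in the richest such window was 14 for the imprinted genes and 6 for all genes. Both measures draw on every window of a gene, and the number of windows a gene was not matched. Counted by window, 7 of 51 windows of the imprinted genes held the hexamer, against 2850 of 32851 for all genes. The windows before the Igf2r start (chr17:12769707-12769956, minus strand, 27 CpG sites), the upstream Zdbf2 start (chr1:63200108-63200357, plus strand, 13 CpG sites and 3 copies of the hexamer) and the Plagl1 start (chr10:13090582-13090831, plus strand, 19 CpG sites and 1 copy) follow, with the 146 bases that separate the Peg3 and Usp29 transcripts, which run away from each other (chr7:6730432-6730577, plus strand, 5 CpG sites and no copy). The window before the downstream Zdbf2 start (chr1:63273019-63273268, plus strand), which is not printed, had 26 CpG sites and no copy of the hexamer. Capitals mark CpG sites.
Igf2r: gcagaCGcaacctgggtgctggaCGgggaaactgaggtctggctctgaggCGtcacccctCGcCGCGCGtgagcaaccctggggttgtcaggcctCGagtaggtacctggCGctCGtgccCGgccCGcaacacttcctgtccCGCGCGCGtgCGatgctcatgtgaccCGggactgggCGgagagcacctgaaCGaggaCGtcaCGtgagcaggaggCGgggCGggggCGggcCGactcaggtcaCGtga
Zdbf2: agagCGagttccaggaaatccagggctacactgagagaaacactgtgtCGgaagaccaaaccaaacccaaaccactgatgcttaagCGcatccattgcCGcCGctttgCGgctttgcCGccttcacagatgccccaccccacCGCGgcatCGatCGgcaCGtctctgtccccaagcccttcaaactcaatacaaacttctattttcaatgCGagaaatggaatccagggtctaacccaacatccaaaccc
Plagl1: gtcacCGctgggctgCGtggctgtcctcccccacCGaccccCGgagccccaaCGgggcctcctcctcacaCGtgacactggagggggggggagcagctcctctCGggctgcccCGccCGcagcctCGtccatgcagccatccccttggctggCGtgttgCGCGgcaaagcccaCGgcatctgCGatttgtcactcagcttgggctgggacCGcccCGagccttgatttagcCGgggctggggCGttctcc
Peg3-Usp29: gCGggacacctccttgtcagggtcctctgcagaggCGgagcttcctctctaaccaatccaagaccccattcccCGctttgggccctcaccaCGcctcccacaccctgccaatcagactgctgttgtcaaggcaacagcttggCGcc

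Depth was 4489804 to 6921305 reads in genes in the control mESC libraries, 3354852 to 5826923 in the vitC mESC libraries, and 15367652 and 17188555 in the control and vitC hESC libraries, as recovered from the deposited values. Levels are given as normalised counts, which are the reads of a gene divided by a scaling factor of its library. All 9 mouse ES cell markers were present, with a summed level of 27798 to 31583 normalised counts. The 8 fibroblast or feeder markers summed to 37.7 to 93.4, the 7 trophoblast markers to 289 to 450.1 with 2 of them at 0, and the 6 endoderm markers to 7.16 to 25.01. The first principal component of the mESC values held 61.9% of their variance and placed VC10 and VC11 apart from VC35B and VC35C, so each effect of vitC is also given within these culture sets. Fewer cells that express a gene and less RNA per cell cannot be told apart in such bulk libraries.

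Levels of the imprinted genes in control and treated mESCs ranged from 0 reads to means above 1000 normalised counts. Of the 37 genes in the table, 3 had a mean above 1000 normalised counts (Impact, Peg10 and Gab1), 15 lay between 100 and 1000, 14 lay above 0 and up to 100, and 5 were at 0 reads in all 8 libraries. Per kb of annotated exon, Impact, a regulator of the GCN2 translation pathway, stood highest with 326 normalised counts per kb. Gab1, a docking protein of growth factor receptors, followed with 312, Peg10, which derives from a retrotransposon and is needed for the placenta, with 249, and Snrpn, which encodes a spliceosomal SmN protein, with 226. Mest (139.8 per kb) and Mcts2 (138 per kb) came next, ahead of Igf2r (106 per kb) and Commd1 (81.3 per kb). The silent genes were Dlk1, Magel2, Kcnq1, Airn and Dcn.

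Partners of a single locus stood at very unequal levels. At the Dlk1-Meg3 locus, the maternally expressed non-coding RNA Meg3 had 780, 999, 939 and 633 normalised counts in the control libraries of VC10, VC11, VC35B and VC35C, while Dlk1, a paternally expressed transmembrane protein related to Notch ligands, had no read. At the H19-Igf2 locus, both partners were near the limit of detection, with 0 to 11 reads for the non-coding RNA H19 and 0 to 6 reads for the growth factor Igf2. Peg10 and Sgce, which encodes epsilon-sarcoglycan, start 99 bases apart on opposite strands of chromosome 6. Sgce nevertheless stood at 0.00821 to 0.0186 of the Peg10 normalised count in the same library. Peg3, a zinc finger gene whose start lies 147 bases from that of Usp29, had 459 to 934 normalised counts, and Usp29 had 0 to 9 reads.

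Several genes overlap a neighbour or have a related copy elsewhere. Zrsr1 lies inside Commd1 on the opposite strand, Mcts2 inside H13 on the same strand and Nnat inside Blcap on the opposite strand. The study's methods name a directional library kit, but whether the authors' gene counting used the strand is not given in the sources used here. Mcts2 matched its X-linked source gene Mcts1 at 84.7% of 668 aligned bases with no identical run above 29 bases, and Zrsr1 matched Zrsr2 at 76.1% of 360 aligned bases with no identical run above 14 bases.

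**Figure D1:**
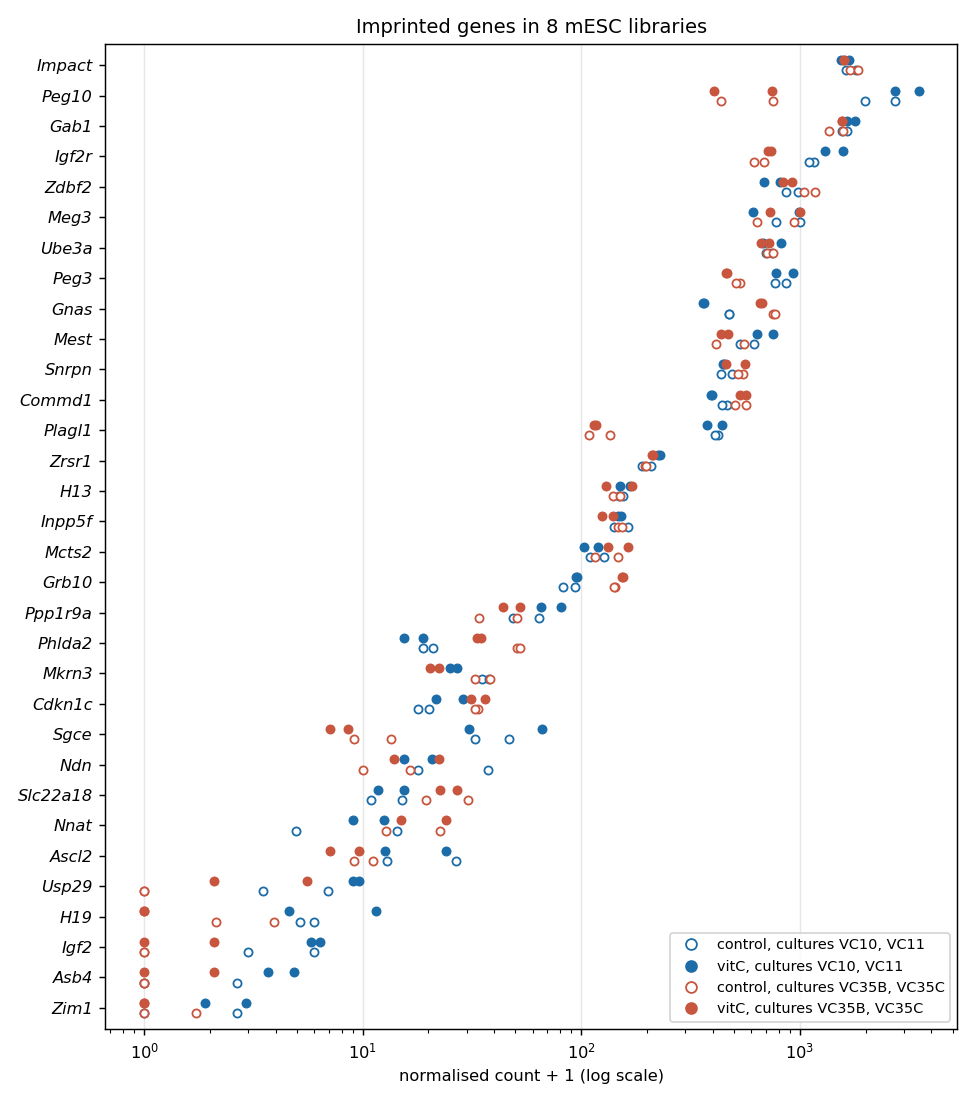
Normalised counts plus 1 (log scale) of the 32 imprinted genes with at least 1 read, in the 4 control (open) and 4 vitC (filled) mESC libraries, coloured by culture set. The colours separate more clearly than the fills: Peg10, Plagl1, Igf2r, Peg3 and Sgce were lower in all libraries of VC35B and VC35C, and Gnas, Grb10 and Phlda2 higher.

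Imprinted genes were called between vitC and control mESCs at rates near those of all genes. Without regard to the pairing of libraries, 0 of the 32 imprinted genes tested passed an adjusted p of 0.05 in limma, against 0.321% of the 14631 genes tested that were called higher and 0.0205% called lower. At an unadjusted p under 0.05, 2 of the 32 were lower (Mkrn3 and Zdbf2) and 0 higher, against 465 and 655 of the 14631 genes tested, and edgeR and DESeq2 on recovered reads also called 0. Of the 32 estimates, 16 were above and 16 below 0, with a median of 0.00 on the log2-like scale of the deposited values, beside -0.00 over all genes tested. With each culture as a block, which removes the large difference between cultures, 1 imprinted gene was called higher and 3 lower, against 6.36% and 4.44% of all genes tested. Taken in either direction, the counts of both fits were near the shares over all genes, so they mark no trait particular to imprinted genes. Beside these calls, 4 of the 9 mouse ES cell markers were lower with the block, each in 4 of 4 pairs, namely Nanog (-0.25, adjusted p of 0.000647), Dppa5a (-0.25, adjusted p of 0.000527), Pou5f1 (-0.12, adjusted p of 0.0221) and Zfp42 (-0.13, adjusted p of 0.0356), and Tfcp2l1 was higher (0.11, adjusted p of 0.0231). Tfap2c, 1 of the 4 trophoblast markers tested, was higher by 0.26 (adjusted p of 0.000922). The 4 markers of 2-cell-like cells, 3 of them listed, summed to 0 to 2.49 normalised counts in control and 3.23 to 15.3 in vitC, and Zscan4d, 1 of 2 tested, was called higher (0.24, adjusted p of 0.0331). No marker of the other cell types passed in this fit, and none of any type without the block. The part of these markers in the vitC results was not tested.

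Igf2r, the maternally expressed receptor that carries IGF2 to lysosomes and so limits growth, was the gene called higher with the block. Its control libraries of VC10, VC11, VC35B and VC35C had 1164, 1105, 688 and 614 normalised counts, and the matching vitC libraries had 1573, 1306, 714 and 741. Each vitC library was above its own control, by a ratio of 1.04 to 1.35, while the ranges of the groups overlapped because VC10 and VC11 stood above VC35B and VC35C. Control libraries averaged 893 ± 282 and vitC libraries 1083 ± 426 normalised counts (SD, n = 4 each). The estimate was 0.22 with an SE of 0.05 and an adjusted p of 0.00434 with the block, and an SE of 0.26 and an adjusted p of 0.910 without it. Within the culture sets it was 0.31 in VC10 and VC11 and 0.14 in VC35B and VC35C. Airn, the paternally expressed RNA that runs antisense across the Igf2r start and silences Igf2r on that copy, had no read in any library.

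Zdbf2, a paternally expressed zinc finger gene that affects body growth after birth, had the smallest adjusted p among the imprinted genes in the fit with the block. The control libraries had 860.3, 977, 1174 and 1049 normalised counts, and the vitC libraries 685, 809.8, 919 and 837. VitC libraries were below their controls in 4 of 4 pairs, by ratios that went down to 0.783. The estimate was -0.28 with an SE of 0.04 and an adjusted p of 6.88e-05 with the block, against 0.517 without it. It was -0.26 in VC10 and VC11 and -0.30 in VC35B and VC35C. Both sets thus gave an estimate of like size, and their difference did not pass the test (adjusted p of 0.951 in limma).

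Gnas, which encodes the stimulatory G protein alpha subunit and several isoforms imprinted in opposite directions, was also lower in all pairs. Its control libraries had 473, 473, 754 and 770.3 normalised counts, and its vitC libraries 364, 359.7, 671 and 659. The estimate was -0.23 with an SE of 0.04 and an adjusted p of 0.00155 with the block (0.859 without it). Within sets it was -0.30 in VC10 and VC11 and -0.17 in VC35B and VC35C. The count covers all isoforms together, so the isoform that changed was not resolved. Nespas, the antisense RNA of the locus, had 67.9 ± 3.04 normalised counts in control and 73.2 ± 15.8 in vitC (SD, n = 4 each), with an adjusted p of 0.711 in limma with the block.

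Mkrn3, a paternally expressed makorin ring finger gene that restrains the onset of puberty, had few reads (14 to 43 a library). Its control libraries had 34.0, 36.7, 37.3 and 31.6 normalised counts, and its vitC libraries 25.9, 24.2, 21.4 and 19.4. Every vitC library was below every control library, and the ratio of the group means was 0.650. The estimate was -0.19 with an SE of 0.06 and an adjusted p of 0.0422 with the block (0.329 without it). This call was lost when any 1 culture was left out, while those of Zdbf2 and Gnas held in all 4 such fits and that of Igf2r in 3, the exception being the fit without VC10. The deposited scale is compressed at low counts, and edgeR on recovered reads gave a log2 fold change of -0.60 with an SE of 0.19 (adjusted p of 0.0329 with the block).

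**Figure D2:**
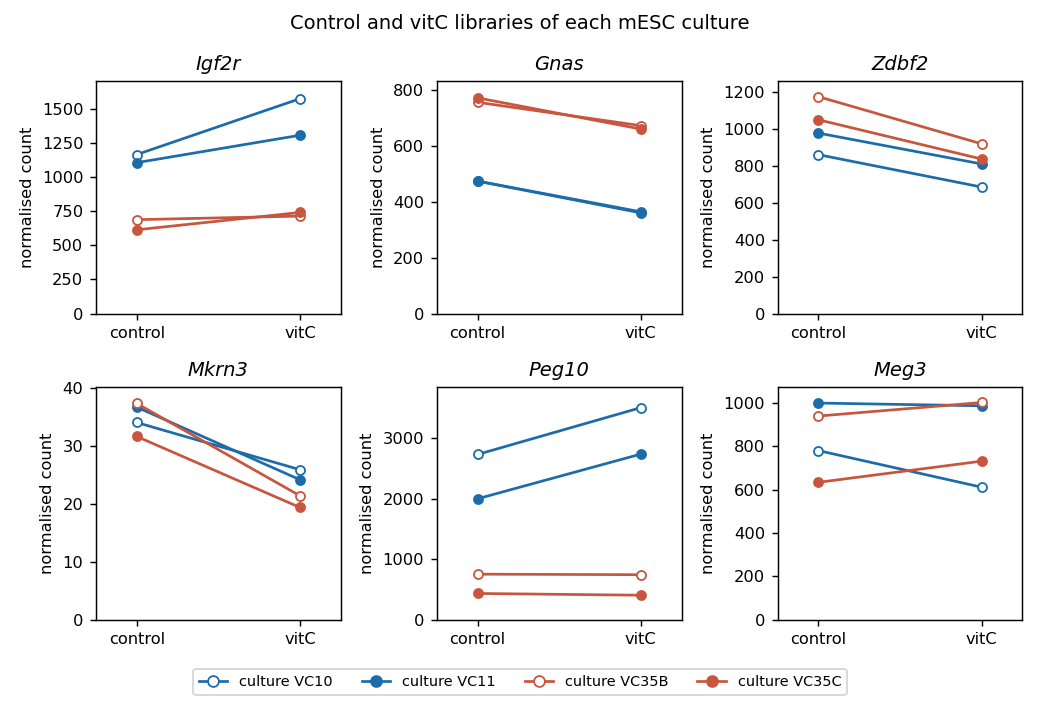
Normalised counts of 6 imprinted genes in the control and vitC library of each mESC culture, joined by a line for each culture. VitC libraries lie below their controls in all 4 pairs for Zdbf2, Gnas and Mkrn3 and above them in all 4 for Igf2r. For Peg10 they lie above in VC10 and VC11 only, and for Meg3 on both sides.

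The other members of the same loci gave no call with vitC. Snrpn, Ndn and Ube3a, neighbours of Mkrn3 in the Prader-Willi and Angelman region, had block estimates of -0.05, -0.03 and -0.01 with SEs of 0.04 to 0.08. Ube3a, a ubiquitin ligase imprinted chiefly in neurons, had 703, 745, 707 and 757 normalised counts in control and 820.2, 679, 662 and 724 in vitC. In that gene the vitC libraries lay on both sides of the controls. In the Kcnq1 cluster, Phlda2, which restrains growth of the placenta, had 19.9, 17.9, 49.8 and 51.5 normalised counts in control and 14.4, 17.9, 33.6 and 32.3 in vitC (block estimate of -0.14, SE 0.06, adjusted p of 0.162). Cdkn1c, an inhibitor of cyclin-dependent kinases, had an estimate of 0.06 with an SE of 0.06.

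Among the most abundant members, the estimates were small and below the threshold. Impact had 1625, 1801, 1706 and 1847 normalised counts in control and 1674, 1549.9, 1585 and 1596 in vitC (block estimate of -0.11, SE 0.04, adjusted p of 0.0825). Gab1 had 1567, 1649, 1575 and 1355 in control and 1640.3, 1790 (VC11), 1559 and 1552 in vitC (0.08, SE 0.04, adjusted p of 0.173). Both stayed within a narrow band in all 8 libraries. H13, an intramembrane peptidase, had 149, 155, 139 and 150.1 in control and 167, 149, 169.7 and 129 in vitC, and Inpp5f, a phosphoinositide phosphatase, had 162, 139.8, 146 and 153 in control and 151, 146, 124 and 139 in vitC. Their block estimates were 0.03 and -0.06 with SEs of 0.05. Zrsr1 was higher with vitC in 4 of 4 pairs, by a ratio of 1.06 to 1.21, with an adjusted p of 0.209 in limma with the block.

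The response of Peg10 to vitC differed between the culture sets. Its control libraries had 2729, 1997, 753 and 435 normalised counts, and its vitC libraries 3501, 2735, 744 and 406. The vitC library was thus above its control in VC10 and VC11 and slightly below it in VC35B and VC35C, at estimates of 0.39 and -0.05. The difference between these responses was -0.43 with an SE of 0.07 and an adjusted p of 0.0285 in limma, and -0.46 with an adjusted p of 0.0484 in edgeR. Peg10 was the 1 imprinted gene called of 32, against 0.0889% of all genes tested (13 of 14631). With 2 cultures a set this test was fragile: without any 1 culture the difference was -0.39 to -0.47 but the adjusted p was 0.0542 to 0.882. Over all cultures, limma with the block gave Peg10 an estimate of 0.17 (SE 0.06, adjusted p of 0.0856), and edgeR with the block a log2 fold change of 0.25 (SE 0.06, adjusted p of 0.00847). With Peg10, edgeR with the block called 2 imprinted genes higher and 3 lower of 27, against 8.19% and 6.29% of the 11927 genes it tested.

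Other members had response differences that did not pass the adjusted test. Of the 32 imprinted genes, 6 had an unadjusted p under 0.05 for this difference, against 1074 of the 14631 genes tested. Meg3 had vitC libraries at 611, 986, 1001 and 731 normalised counts, below the controls given above in VC10 and VC11 and above them in VC35B and VC35C, for a difference of 0.28 (SE 0.09, adjusted p of 0.419). Mest, a member of the alpha/beta hydrolase fold family, had 619, 535, 554 and 411 in control and 756, 635, 466 and 435 in vitC (difference of -0.29, SE 0.09, adjusted p of 0.413).

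As among all genes, more imprinted genes were called between the culture sets than between the treatments. Of all genes tested, 4799 were called between the sets, and 50 with vitC without the block or 1581 with it. Comparing the mean of each culture (2 against 2), 17 of 32 imprinted genes passed an adjusted p of 0.05 in limma, 7 higher and 10 lower in VC35B and VC35C, against 14.7% and 18.1% of the 14631 genes tested. Of the 17 paternally expressed genes tested, 1 was higher and 7 lower, and of the 14 maternally expressed genes, 5 were higher and 3 lower. The expressed copy was assigned from general knowledge, not from these reads, and whether it holds in mESCs was not tested. The split by expressed copy therefore does not measure a parental bias. The lower calls include Igf2 and Usp29 (paternal) and H19 (maternal), which had few reads and passed the filter through VC10 and VC11. Without these genes, 14 of the calls remained, each above 0 in all 8 libraries. The median estimate over the 32 genes was -0.05, and -0.01 over all genes tested. Of the 17, 8 held the call in all 10 alternative fits, which included those with only control libraries, only vitC libraries or without any 1 culture: Peg10, Sgce, Plagl1, Igf2r, Peg3, Gnas, Grb10 and Phlda2. What differed between the sets besides their names is not given, and its part in these results was not tested.

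Peg10 showed the largest difference among the imprinted genes on the deposited scale. The ratio of set means was larger for Sgce, and for Igf2, Asb4, Zim1 and H19, which had at most 11 reads in any library. Its libraries of VC10 and VC11 averaged 2740.5 normalised counts and those of VC35B and VC35C 585, a ratio of 4.69, and the ranges (1997 to 3501 and 406 to 753) did not overlap. The difference was -2.02 (SE 0.16, adjusted p of 2.76e-06). Sgce, on the other side of the shared start region, differed by a ratio of 5.04 between the set means. It had 45.7, 31.7, 12.4 and 8.09 normalised counts in control and 65.2, 29.5, 6.11 and 7.54 in vitC. The difference on the compressed deposited scale was -0.59 (SE 0.09, adjusted p of 0.000268), and edgeR gave log2 fold changes of -2.25 for Peg10 (SE 0.16) and -2.30 for Sgce (SE 0.31). Ppp1r9a, the neurabin gene farther along the cluster and maternally expressed, was lower by -0.21 (SE 0.06, adjusted p of 0.0206) and lost the call in 5 of the alternatives.

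Plagl1 and Peg3, both paternally expressed zinc finger genes, were lower in VC35B and VC35C as well. Plagl1 had 423, 409.6, 135 and 107 normalised counts in control and 437, 376, 116 and 113 in vitC. The sets were separated by a ratio of 3.49, at a difference of -1.19 (SE 0.06, adjusted p of 1.46e-07). Peg3 had 863, 767, 530.5 and 509 in control and 934, 778, 459 and 464 in vitC, and its ratio was 1.70 (difference of -0.64, SE 0.07, adjusted p of 2.14e-05). Igf2r, with the library values given above, had a ratio of 1.87 (difference of -0.78, SE 0.06, adjusted p of 2.99e-06). In each of these genes all libraries of VC35B and VC35C lay below all libraries of VC10 and VC11. Mest was lower by -0.36 (SE 0.08, adjusted p of 0.00395), but its ranges overlapped and the call was lost in the control libraries alone (adjusted p of 0.225) and without VC10 (0.152).

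Gnas, Grb10 and Phlda2 stood higher in VC35B and VC35C. Gnas had a mean of 714 normalised counts there and of 417 in VC10 and VC11, a ratio of 1.71 (difference of 0.63, SE 0.06, adjusted p of 4.73e-06). Grb10, an adaptor that dampens signalling from the insulin receptor, had 92.2, 81.3, 141 and 139.8 in control and 94.0, 94.9, 153 and 154 in vitC. Its ranges did not overlap, at a ratio of 1.62 (difference of 0.38, SE 0.06, adjusted p of 0.000389). Phlda2 had a ratio of 2.39 (difference of 0.37, SE 0.06, adjusted p of 0.000714). The neighbouring Cdkn1c (difference of 0.18, adjusted p of 0.0445) and Slc22a18, a transporter gene (0.23, adjusted p of 0.0261), were called higher too but lost the call in 7 and 5 of the alternatives.

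Commd1, a regulator of NF-kB and copper handling, had 466, 438, 507 and 568 normalised counts in control and 389, 395, 530.4 and 566 in vitC, for a difference of 0.29 (SE 0.06, adjusted p of 0.00266). Zrsr1, the splicing factor retrogene inside its intron, had a difference of -0.04 (SE 0.06, adjusted p of 0.632). Zdbf2 was higher by 0.22 (SE 0.07, adjusted p of 0.0294) and lost the call in 6 of the alternatives. Of the remaining calls, H19, Igf2 and Usp29 rested on a handful of reads. Each was above 0 in every library of VC10 and VC11, the set where it was high, and passed the filter of 4 libraries through that set. Their calls are therefore not independent support for a difference. Igf2 had 6, 2, 0 and 0 reads in control and 5, 6, 0 and 1 in vitC, H19 had 5, 5, 1 and 4 in control and 11, 4, 0 and 0 in vitC, and Usp29 had 3, 6, 0 and 0 in control and 9, 9, 3 and 1 in vitC. None of these genes was tested when a value above 0 was required in all 8 libraries. Nnat, the small membrane proteolipid neuronatin, had 13.3, 3.97, 21.5 and 11.8 normalised counts in control and 11.5, 8.05, 22.9 and 14.0 in vitC, with overlapping ranges (difference of 0.20, SE 0.08, adjusted p of 0.0834).

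Some members gave no call between the sets. Impact differed by 0.02 (SE 0.06), Ube3a by -0.04 (SE 0.06) and Inpp5f by -0.05 (SE 0.06). Meg3 differed by -0.02 (SE 0.14), and by -0.25 to 0.20 when 1 culture was left out. Snrpn had 488, 433, 549.7 and 522 normalised counts in control and 445, 449, 559 and 458 in vitC (difference of 0.16, SE 0.06, adjusted p of 0.0739), and was called in edgeR (adjusted p of 0.0264), with treatment as a covariate in limma (0.0261) and without VC35C (0.0167). Beside these results, the summed level of the 5 neural markers was 456 to 536 normalised counts in VC10 and VC11 and 662 to 763 in VC35B and VC35C, with 1 marker at 0 in all libraries, 1 of the 4 tested called higher (Tubb3) and 0 lower. The 9 mouse ES cell markers had overlapping sums in the sets, with 3 called higher and 3 lower. Of the 6 primed or epiblast markers, Otx2 (22.8 and 79.6 normalised counts in VC10 and VC11 and in VC35B and VC35C) and Fgf5 (0 and 2.05) were called higher, and T (91.9 and 7.58) and Lef1 (261 and 39.7) lower. The trophoblast marker Cdx2 was lower (94.6 and 8.09), 1 of 4 tested. Of 5 fibroblast or feeder markers tested, Thy1 was higher (8.13 and 63.9), and Col1a2 (33.6 and 0) and Pdgfrb (9.31 and 2.63) lower, and the endoderm marker Sox7 was higher (1.15 and 6.55), 1 of 4 tested. Fgf5, with at most 3 reads in any library, and Col1a2 were each above 0 in only 4 libraries, all in the set where they were high. They entered the test through that set alone, so their calls are not independent support for a difference. The part of these markers in the differences of imprinted genes was not tested.

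**Figure D3:**
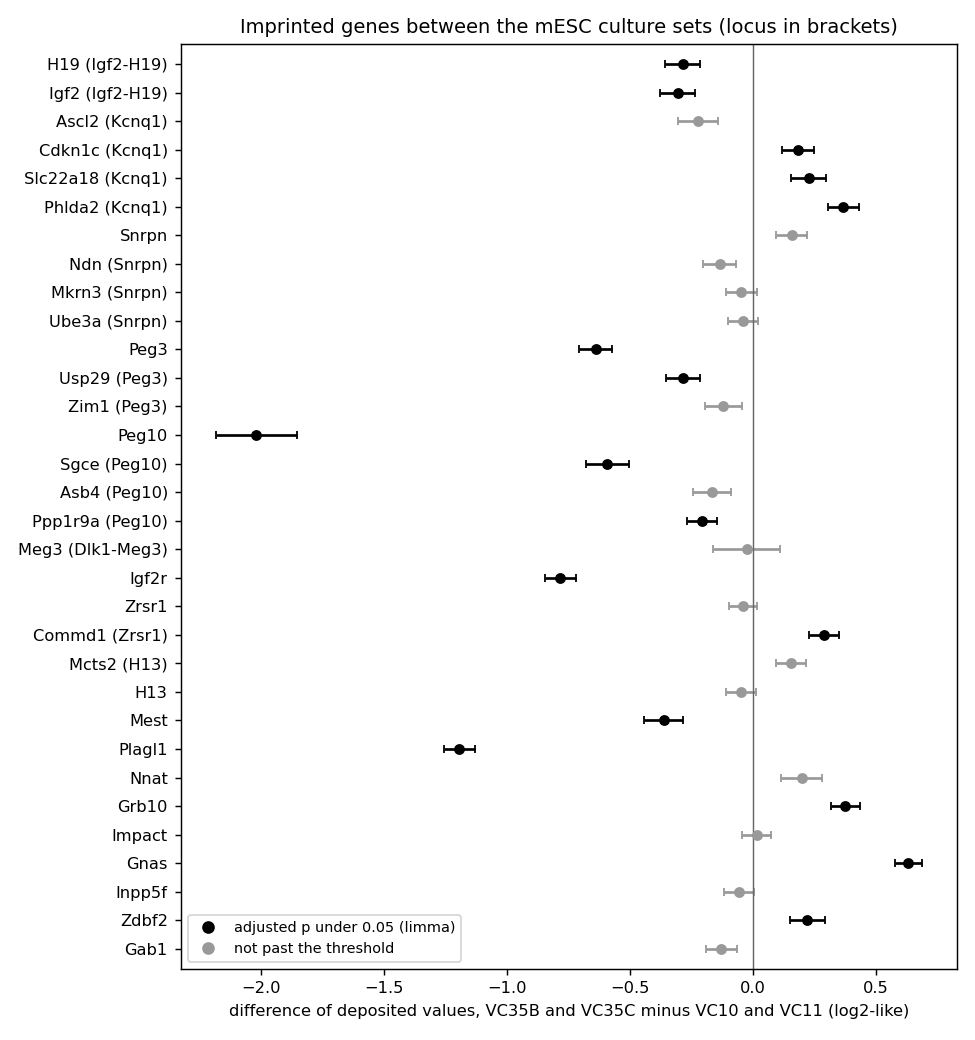
Difference of the deposited log2-like values between the culture sets (VC35B and VC35C minus VC10 and VC11) for the 32 imprinted genes tested, with its standard error, ordered by locus. Black points passed an adjusted p of 0.05 in limma; Peg10 (-2.02) and Plagl1 (-1.19) lie farthest below 0 and Gnas (0.63) farthest above.

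A further list of 62 genes reported as imprinted in mouse tissues gave 54 in the table and 39 tested. With vitC, 1 was called higher without the block in limma (Qpct) and 0 lower, against 0.321% and 0.0205% of all genes tested. With the block, 3 were higher (Qpct, Slc38a4 and Herc3) and 0 lower, against 6.36% and 4.44%. At an unadjusted p under 0.05, 0 were lower by either limma fit as well. In edgeR with the block, 3 were also higher and 0 lower, against 8.19% and 6.29% of the genes it tested. Qpct, glutaminyl cyclase, rose from 7.75 ± 2.88 to 56.0 ± 8.04 normalised counts (SD, n = 4 each), by 0.78 with an SE of 0.07 (adjusted p of 0.00113 without the block) and in 4 of 4 pairs. Slc38a4, a paternally expressed amino acid transporter, had means of 73.0 ± 46.5 and 124 ± 78.4 (block estimate of 0.36, SE 0.06, adjusted p of 0.000325). Herc3 had means of 85.4 ± 21.1 and 124 ± 39.8 (0.27, SE 0.06, adjusted p of 0.00577). Between the culture sets, 3 of the 39 were higher and 13 lower in VC35B and VC35C, against 14.7% and 18.1% of all genes tested, with Slc38a4 (-0.75, adjusted p of 0.000103) and Herc3 (-0.35, adjusted p of 0.000765) among the lower.

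Of 32 genes that set, read or protect imprints, 31 were tested. Without the block 0 were called with vitC (at an unadjusted p under 0.05, 2 were higher and 1 lower), and with it 5 were higher and 3 lower in both limma (against 6.36% and 4.44% of all genes tested) and edgeR (8.19% and 6.29%). Zfp57 and Trim28, which hold methylation at imprinting control regions, had block estimates of -0.10 (SE 0.05) and -0.01 (SE 0.03). Zfp445, a second KRAB zinc finger gene that maintains imprints, was lower in 4 of 4 pairs, with 377 ± 19.8 normalised counts in control and 302 ± 20.8 in vitC (SD, n = 4 each), a block estimate of -0.24 (SE 0.05, adjusted p of 0.00216) and an adjusted p of 0.225 without the block. Setdb1, the H3K9 methyltransferase they recruit, rose by 0.23 (SE 0.04, adjusted p of 0.000403). Dppa3, which shields imprints in the zygote, rose by 0.30 (SE 0.06, adjusted p of 0.00363), and Tet2 fell by 0.26 on the same scale (SE 0.06, adjusted p of 0.00492). Kdm3b, a Jumonji demethylase of H3K9, was higher by 0.21 (SE 0.04, adjusted p of 0.000647), and Ehmt1, an H3K9 methyltransferase, by 0.14 (SE 0.04, adjusted p of 0.0277). The Polycomb subunits Suz12 and Ezh2 had estimates of 0.23 (adjusted p of 0.000479) and -0.13 (adjusted p of 0.0481). Dnmt1 and Uhrf1, which copy methylation after replication, had estimates of 0.10 (adjusted p of 0.0771) and 0.04 (adjusted p of 0.543), and Tet1 had -0.11 (adjusted p of 0.0818).

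Several of these regulators also separated the culture sets. In VC35B and VC35C, Zfp57 was higher by 0.41 (SE 0.08, adjusted p of 0.00258), Trim28 by 0.30 (SE 0.07, adjusted p of 0.00624), Uhrf1 by 0.19 (adjusted p of 0.0259) and Tet2 by 0.90 (SE 0.09, adjusted p of 2.34e-05). Dppa3 was lower by -0.96 (SE 0.08), with means of 132 and 27.3 normalised counts in VC10 and VC11 and in VC35B and VC35C, and Setdb1 was lower by -0.43 (SE 0.06, adjusted p of 0.000142). Dnmt1 and Tet1 did not pass the threshold (adjusted p of 0.0900 and 0.327). In all, 7 of the 31 were higher and 6 lower, against 14.7% and 18.1% of all genes tested. Whether these levels bear on those of the imprinted genes was not tested.

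In hESCs there was 1 library per condition and hence no test of the treatment. Of the 35 genes in the table, 8 had no read in either library and 24 had at least 10 reads in both. Among these 24, the median log2 ratio of vitC over control in the share of all reads in genes was -0.04, against 0.02 over the 14306 genes with as many reads, and the range was -0.91 to 0.30. Of the 24, 1 (ZRSR1, with 52 and 31 reads) was past a 1.5-fold difference, against 6.98% of the 14306 genes. The intervals given are exact 95% intervals that cover counting error only. They lay above 0 for 2 of the 24 and below 0 for 9, against 2235 above and 1724 below of the 14306 genes. In either direction this was 45.8% and 27.7%. Such an interval narrows as reads rise, and the 24 genes were not matched to the others for reads, so these shares do not compare the size of the response. The recovered hESC totals were 1.77 and 1.81 times the aligned library sizes (0.711 to 0.832 times in mESCs), and 66.0% and 65.2% of the values from 1 to 50 were odd (53.1% to 54.7% in mESCs). A human count may therefore not stand for 1 independent fragment, and these intervals may be too narrow.

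The human counterparts of the genes called in mESCs had their own values. IGF2R had 3247 reads in control and 3031 in vitC, a log2 ratio of -0.26 (interval of -0.33 to -0.19). ZDBF2 had 712 and 773 reads (-0.04, interval of -0.19 to 0.11), and GNAS 19286 and 21099 (-0.03, interval of -0.06 to -0.0037). MKRN3 had no read in either library, which allows up to 3 reads, or 0.195 CPM (reads per 1e6 reads in genes) in control and 0.175 CPM in vitC. PEG10 had 5792 and 5570 reads (-0.22, interval of -0.27 to -0.16), and H19 270 and 372 (0.30, interval of 0.07 to 0.53). The mouse and human tables were normalised separately, so no value was compared between them by a test.

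Partner genes of the human loci were also unequal. DLK1 had 1429 reads in control and 1536 in vitC, while MEG3, which is not among the 24, had 0 and 10 (lower end of the interval of the log2 ratio at 1.00). PEG3, USP29, PHLDA2, ASCL2, AIRN, DCN and ASB4 had no read in either library. H19 and IGF2 (451 and 515 reads) were both detected. The human ES cell markers POU5F1 (1034 and 1173 reads), NANOG (643 and 847) and SOX2 (5423 and 6083) were present in both libraries.

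**Figure D4:**
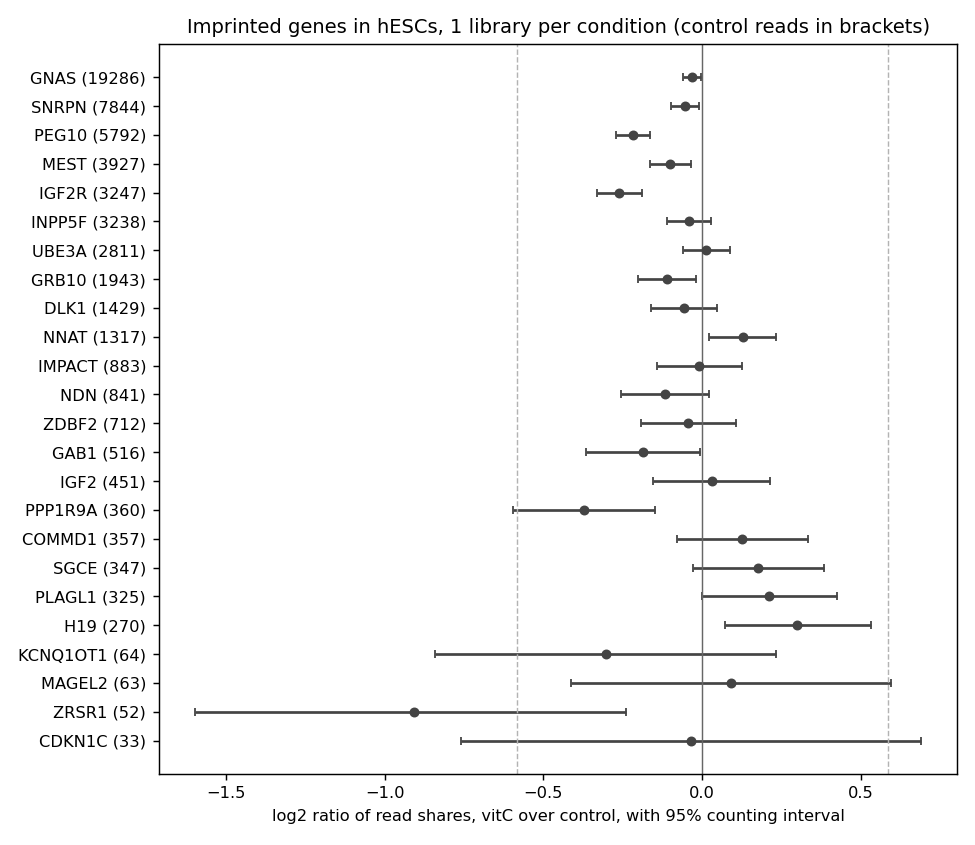
Log2 ratio of the share of reads, vitC over control, for the 24 imprinted genes with at least 10 reads in each hESC library, with exact 95% counting intervals and dashed lines at 1.5-fold either way. GNAS has the narrowest interval, and ZRSR1, at 52 control reads, is the one point beyond a dashed line.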

How the data were processed

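RNA was sequenced from 8 mESC and 2 hESC libraries. Trim Galore, HISAT2, DESeq2, mm10 and hg38 are named in the submitters' processing notes, and versions are not given in the sources used here. The authors deposited gene values as DESeq2 variance-stabilised log2 values, which are compressed at low counts, and expected counts of repeats, whose tables were used here for the aligned library size only. The transformation was inverted from the lowest value of each table (0 reads) and the smallest step of each library (1 read), and 100% of 116385 mESC and 38034 hESC values above 0 came out as whole reads within 0.1. Levels in the text are these reads divided by the library's scaling factor.

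Deposited values were tested with limma 3.58.1 (trend, Benjamini-Hochberg adjustment, threshold 0.05) in R 4.3.3 on 14631 genes above 0 reads in at least 4 of 8 mESC libraries. The main fit was unpaired, and an alternative had the culture as a block. Control and vitC libraries of a culture carry the same culture name in the labels, and they were paired by that name. The correlation within a culture of what remained after subtracting group means was 0.626 to 0.765. Libraries of different cultures were not compared in this way, so the correlation cannot tell pairing by culture from likeness within a culture set. Culture sets and response differences were fitted on 1 value per culture. edgeR 4.0.16 and DESeq2 1.42.0 on recovered reads were alternatives, with edgeR testing 11927 genes. The scripts were tested on simulated data. In hESCs the log2 ratio of read shares was given with an exact Clopper-Pearson interval. Exon lengths, overlaps and start distances came from GENCODE on GRCm38, the build of mm10.

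The members and gene lists were chosen with earlier results of these data known. Every member was accounted for; values in each library were given for members past the threshold with vitC (with or without the block) or in the response difference, for the 10 largest called differences between the sets, and for the most abundant member of each locus. Of the further lists, genes called with vitC were named, and Zfp57, Trim28, Dppa3, Dnmt1, Uhrf1, Tet1 and Tet2 were given by value. Per-sample columns that were not used numbered 7.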

Additional observations from a re-analysis of the deposited data

Results flagged for a closer look

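The vitC response of Peg10 differed between the culture sets by -0.43 on the log2-like scale (VC35B and VC35C minus VC10 and VC11, adjusted p of 0.0285 in limma), a test of the difference itself on 2 cultures a set.

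In the vitC group of 4 libraries, Snrpn in the VC35B library had a deposited value of 9.44, set apart from the next library at 9.20 by 0.881 of the group's range. In the control group, Asb4 in the VC10 library had a deposited value of 6.35 and 2 reads, while the other controls had 0 reads. In all, 64 groups of 4 libraries were examined and 2 had such a library, where chance gives about 1 in 20 for values without ties. That rate does not hold for groups with values tied at 0 reads, such as the Asb4 controls.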

How the results depend on the processing

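For vitC against control over all mESC genes, 50 genes were called. The replicate block gave 1581, edgeR with the replicate block 1727, DESeq2 111, a filter for values above 0 in all 8 libraries 28, VC10 and VC11 alone 175, and VC35B and VC35C alone 4. Leaving out 1 library gave 19 to 32 genes, and leaving out 1 culture in the fit with the block, an alternative chosen after seeing the data, 870, 1068, 1290 and 959 (without VC10, VC11, VC35B and VC35C). For imprinted genes the count of 0 became 4 with the replicate block, 5 in edgeR with the block (Peg10 added) and 3 to 5 with the block and 1 culture left out. Impact was called without VC10, Mest without VC35B, and Peg10 without VC35B or without VC35C, while Igf2r was not called without VC10 and Mkrn3 without any 1 culture. The block changed no other call of an imprinted gene.

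Between the culture sets, 4799 genes were called, 2471 in the control libraries alone, 5924 with treatment as a covariate, 5653 in edgeR, and 1465 to 4546 without 1 culture, the lowest without VC10 and 1854 without VC11. The 17 imprinted genes became 10 in the control libraries alone, 11 in the vitC libraries alone, 21 with treatment as a covariate, 19 in edgeR and 8 to 17 without 1 culture, the lowest again without VC10. For the response difference, 13 genes were called, 5 in edgeR with the block, 27 with the filter for all 8 libraries and 0 to 38 without 1 culture, with 0 imprinted genes in each of those last fits. These fits have 1 culture fewer, and no other cause was tested. No called imprinted gene changed direction in any alternative that was run. Estimates that were called in neither fit changed sign in 72 comparisons with vitC, 8 between sets and 22 of the response. Depth limits H19, Igf2, Usp29, Zim1 and Asb4, which had at most 11 reads in any library.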
